A study of Rattus norvegicus with 30 samples.

Results

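The 8 genes described here carry out and control the uptake of iron bound to transferrin: the transferrin receptor Tfrc, its ligand Tf, the second receptor Tfr2, the receptor partner Hfe, the iron regulatory proteins encoded by Aco1 and Ireb2, the ferritin light chain Ftl1, and the endosomal iron reductase Steap3. They were chosen by name, with earlier results of these data known, and each was represented by the single transcript cluster of the array that carried its symbol alone. All 8 lay among the 10918 genes tested, out of 14557 with a cluster named for them alone. The tissue was ileum of 30 male wild-type Long-Evans rats, 8 to 10 weeks old, each hybridised to its own array. There were 5 groups of 6 rats: Roux-en-Y gastric bypass (RYGB) with its sham (Sham_RYGB), and vertical sleeve gastrectomy (VSG) with 2 kinds of sham, one without (Sham_VSG) and one with paired feeding (Sham_VSG_PF). All rats had their solid food replaced by a liquid diet the day before surgery, were anaesthetised with isoflurane and had the abdomen opened and the stomach exposed. VSG transected about 80% of the stomach with a stapler, and in sham rats the transection line was imitated by pressure with blunt forceps; the bypass operation itself is not described in the labels. The series title asks about the intestinal iron absorption machinery in gut hormone secretion and metabolism.

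Cells take up transferrin-bound iron when Tf docks on TfR1, the protein of Tfrc, and the complex is drawn into endosomes, where Steap3 reduces the released iron so that it can leave for the cytosol. In the intestine the receptor sits mainly on the basolateral side of crypt cells and feeds their own needs, whereas dietary iron enters from the lumen by another carrier. When cytosolic iron is scarce, the iron regulatory proteins bind stem-loops called iron-responsive elements, which stabilises the Tfrc mRNA and blocks translation of the ferritin mRNAs. Aco1 is a cytosolic aconitase that becomes an RNA-binding protein when it loses its iron-sulphur cluster, and Ireb2 is controlled by breakdown of its protein. Both are therefore regulated largely at the protein level, which arrays do not measure. Hfe and Tfr2 are best known from hepatocytes, where they take part in sensing iron-loaded transferrin upstream of the hormone hepcidin. Transcription of Tfrc is also known to be raised by hypoxia-inducible factors (HIFs).

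The stretches of 250 bases before the gene start are shown for both receptors and their ligand, since Tfrc was the member that differed and Tfr2 and Tf are its relative and its partner. They were taken from RefSeq on the GRCr8 build, which held a promoter for 6 of the 8 members (none for Hfe and Ftl1), and lie at chr11:81690319-81690568 for Tfrc, chr12:24761369-24761618 for Tfr2 and chr8:112695377-112695626 for Tf, all on the minus strand. Capitals mark every match on either strand to one of 4 short motifs: ACGTG (the core of HIF sites), TGACGT (the core of CRE sites), GGGCGG, known as the GC box, and TATAAA, known as the TATA box.
Tfrc: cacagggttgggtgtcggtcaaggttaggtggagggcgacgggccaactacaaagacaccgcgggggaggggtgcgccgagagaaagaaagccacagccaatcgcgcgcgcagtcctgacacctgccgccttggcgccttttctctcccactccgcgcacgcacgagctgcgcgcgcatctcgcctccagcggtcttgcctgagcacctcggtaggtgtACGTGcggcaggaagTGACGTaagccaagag
Tfr2: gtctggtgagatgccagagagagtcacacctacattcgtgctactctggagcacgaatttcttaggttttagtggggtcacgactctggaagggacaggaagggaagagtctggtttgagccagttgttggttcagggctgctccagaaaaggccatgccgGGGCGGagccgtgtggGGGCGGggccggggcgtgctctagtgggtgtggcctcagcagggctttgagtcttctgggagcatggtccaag
Tf: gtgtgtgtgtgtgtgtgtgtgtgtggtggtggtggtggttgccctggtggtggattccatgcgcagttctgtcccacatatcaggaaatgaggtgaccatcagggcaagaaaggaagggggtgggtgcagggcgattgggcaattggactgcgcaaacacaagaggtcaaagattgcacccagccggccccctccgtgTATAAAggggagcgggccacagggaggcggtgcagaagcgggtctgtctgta

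Among the 6 members with a promoter, the letters ACGTG were found for Tfrc alone, starting 31 bases before the gene start, and they occur in 16.6% of all 33469 promoters of the same length. The Tfrc window also held TGACGT, starting 16 bases before the start and not overlapping ACGTG; this motif occurs in 6.95% of promoters. The Tf window held TATAAA 52 bases before the start (12.9% of promoters), and the Tfr2 window held GGGCGG at 89 and 73 bases before the start (30.5% of promoters). GGGCGG was also found for Aco1, Ireb2 and Steap3, whose windows are not shown. Such matches describe the letters in the window and say nothing about what binds there.

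The samples carried the genes expected of ileum: the bile acid binding protein Fabp6 lay between 11.84 and 12.21 on the log2 signal scale and the bile acid transporter Slc10a2 between 9.77 and 10.84 over the 30 arrays. Array medians ran from 3.10 to 3.25, pairs of arrays correlated with r between 0.952 and 0.981 over all clusters, and no arrays held identical values. For arrays it is the number of rats that limits the precision, and the median 95% confidence interval of a RYGB difference reached 0.31 log2 units to either side. Arrays stood apart in 2 ways before any comparison. Fat cell genes averaged 6.05 to 6.89 in 4 arrays (RYGB replicates 1, 3 and 6 and VSG replicate 1, called fat-rich here) and 3.98 to 4.55 in the other 26. B and plasma cell genes averaged 6.78 to 8.14 in 11 arrays (1 RYGB, 3 Sham_RYGB, 2 VSG, 3 Sham_VSG and 2 Sham_VSG_PF) and 4.04 to 4.88 in the other 19. In bulk tissue, fewer cells of a type and less RNA per cell cannot be told apart.

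Tfrc rose after RYGB. Its log2 signal ran from 8.37 through a median of 8.85 to 9.18 in RYGB rats, against 7.76, 7.93 and 8.21 in Sham_RYGB rats. Every RYGB array lay above every Sham_RYGB array, which was true of 0.458% of the genes tested. The RYGB mean was 8.79 ± 0.37 and the Sham_RYGB mean 7.97 ± 0.19 (SD, n = 6 each), a log2 difference of 0.82 with a 95% confidence interval of 0.50 to 1.13. On the linear scale this was 1.76-fold (1.42 to 2.19), with an adjusted p of 0.023 (limma, Benjamini-Hochberg over all genes tested), and Tfrc ranked 5 by p among the 10918 genes. The call depended on the fit: with only the RYGB and Sham_RYGB arrays fitted the same difference had an adjusted p of 0.215 and no gene passed, and over all 36685 transcript clusters the adjusted p was 0.0689 (limma).

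**Figure D1:**
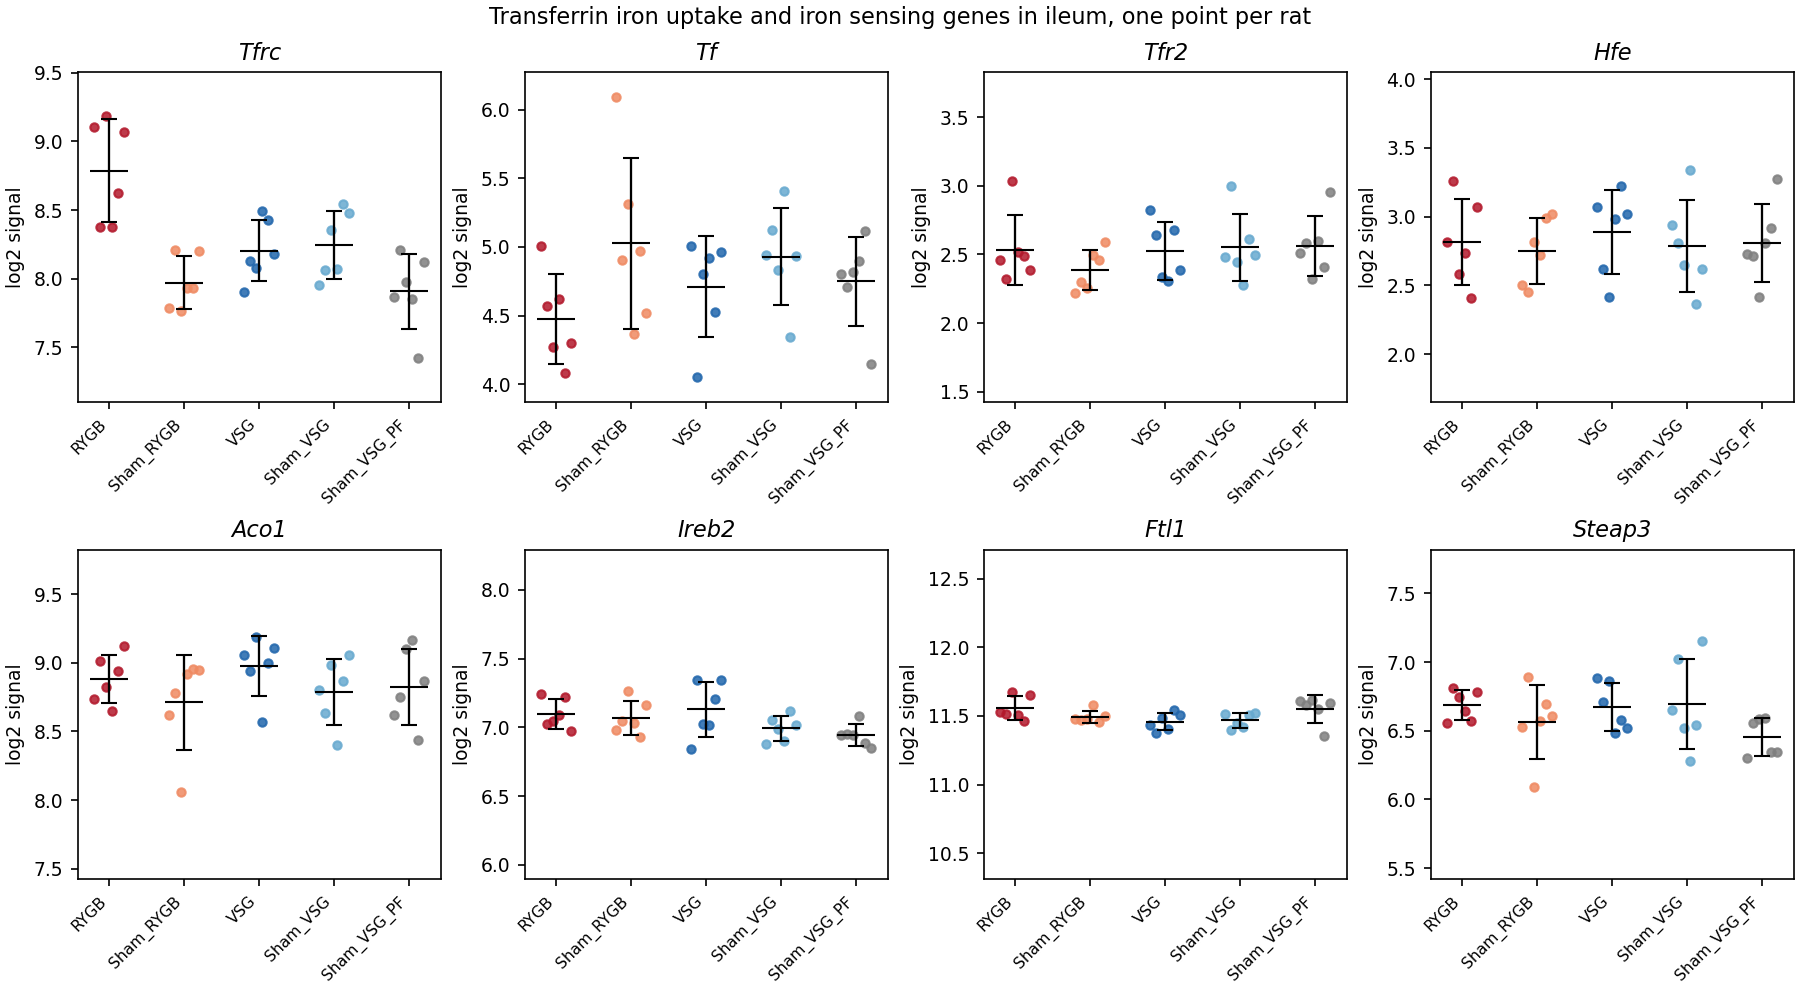
Log2 signal of the 8 genes in each rat (points) by group, with the group mean and SD as horizontal line and bars; each panel spans 2.4 log2 units, so spreads can be set side by side. All 6 RYGB points of Tfrc lie above all 6 Sham_RYGB points, whereas in the other 7 panels RYGB and Sham_RYGB overlap. The lowest RYGB points of Tfrc lie within the range of Sham_VSG.

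The RYGB rats themselves fell into 2 ranges of Tfrc. The 3 RYGB arrays high in fat cell genes read 9.07 to 9.18, and the other 3 read 8.37 to 8.62, still above the highest Sham_RYGB value of 8.21. The single VSG array high in fat cell genes had the lowest Tfrc of its group, at 7.91. That array was also high in B and plasma cell genes (mean 6.78), whereas the 3 RYGB arrays were low in them (4.13 to 4.51). Which of these contents goes with its Tfrc was not tested. Leaving out the 4 fat-rich arrays, the RYGB difference was 0.49 and no longer passed the test (adjusted p = 0.443, limma), and with the mean of the fat cell genes as a covariate it was 0.71 (adjusted p = 0.173). All 11 fat cell genes tested were higher in RYGB than in Sham_RYGB rats, with a median log2 difference of 1.01, and none passed the test.

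Of the enterocyte genes, 11 of 11 tested were higher in RYGB rats, with a median difference of 0.23 and none past the test. With their mean as a covariate the Tfrc difference was 0.70 (adjusted p = 0.096, limma). Proliferation genes mark dividing cells of any type, among them the crypt cells that carry most of the receptor. They were lower in RYGB rats for 13 of 13 members, with a median of -0.34 and none past the test. Their mean was 7.10 to 7.60 in Sham_RYGB replicates 1 to 3, high in B and plasma cell genes. It was 6.93 to 7.02 in replicates 4 to 6. In RYGB replicate 4, also high in B and plasma cell genes, it was 7.21, against 6.49 to 7.06 in the other RYGB rats. Whether such cells bear on the fall was not tested. Of the red cell genes, whose precursors carry much receptor, the 2 tested were higher with a median of 0.35. With the proliferation mean as a covariate the Tfrc difference was 0.80 (adjusted p = 0.0734). Tfrc had a median of 7.95 in the 11 arrays high in B and plasma cell genes and 8.21 in the other 19. The Tfrc difference was 0.72 with the mean of those genes as a covariate (adjusted p = 0.0225, limma). Over the arrays low in them it was 0.85 and did not pass (adjusted p = 0.0595, limma). None of the T and NK (3 of 14 higher), macrophage (3 of 10), fibroblast (7 of 9) and smooth muscle genes (3 of 5) passed either. Leaving out 1 array at a time gave differences of 0.74 to 0.90, and the call was lost without RYGB replicate 6 (adjusted p = 0.0782) or without Sham_RYGB replicate 3 (adjusted p = 0.0854).

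**Figure D2:**
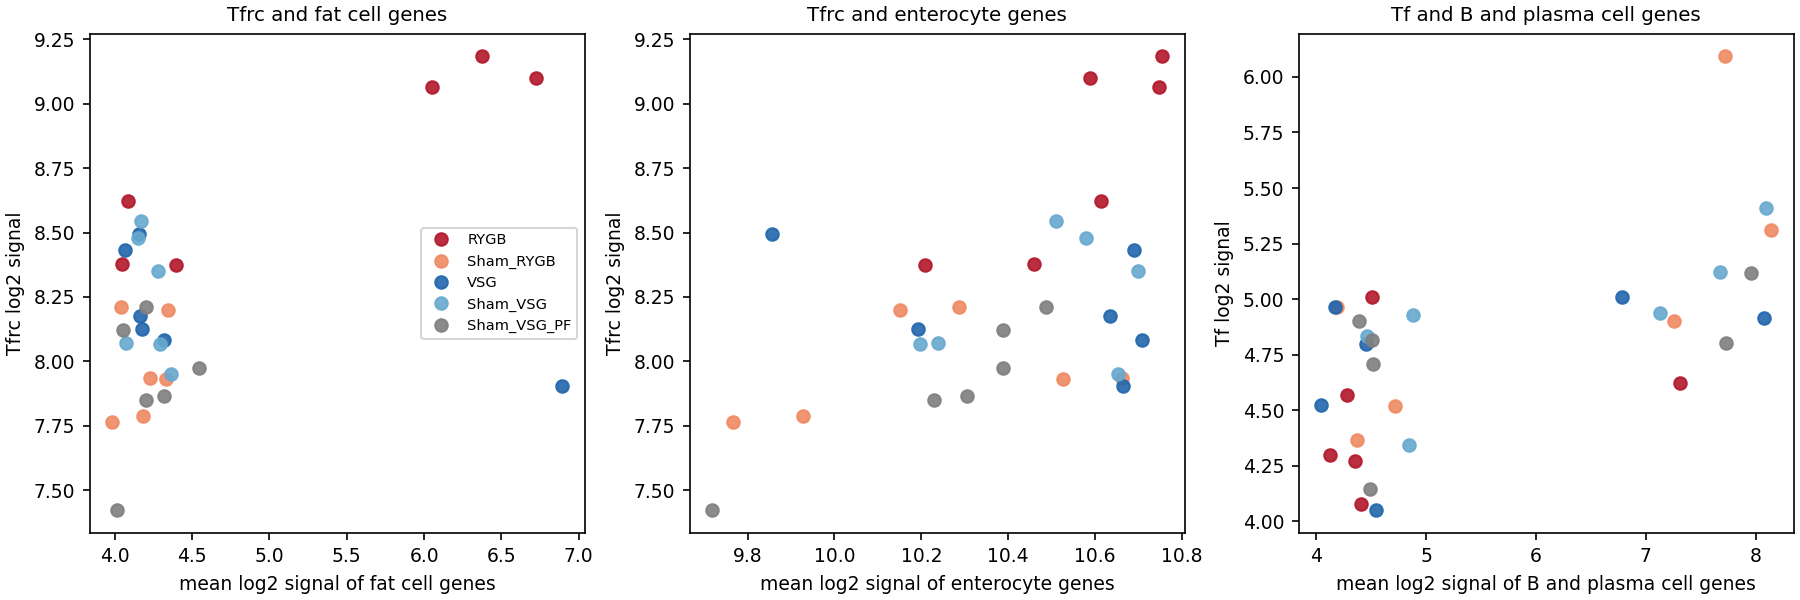
Log2 signal of Tfrc against the mean of the fat cell genes (left) and of the enterocyte genes (middle), and of Tf against the B and plasma cell average (right), 1 point per rat coloured by group. The 3 RYGB rats high in fat cell genes have Tfrc at 9.07 to 9.18, and the 11 rats high in B and plasma cell genes have Tf at 4.62 to 6.09.

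After VSG no difference in Tfrc passed the test. It ran from 7.91 through 8.15 to 8.49 in VSG rats and from 7.95 through 8.21 to 8.54 in Sham_VSG rats. The difference was -0.04 with a 95% confidence interval of -0.35 to 0.27 (adjusted p = 0.965, limma), so the interval leaves room for a fold between 0.782 and 1.21. Setting the operations side by side, the RYGB effect exceeded the VSG effect by 0.86 log2 units (95% confidence interval 0.41 to 1.301). This test of the difference between operations ranked 8 by p, with an unadjusted p of 0.000458, but did not pass after adjustment over all genes (adjusted p = 0.6249, limma). The Tfrc values of RYGB rats thus lay apart from those of their own shams, while the difference between the operations was not called.

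Tfrc averaged differently in the sham groups, though no difference tested between shams passed. It ran from 7.42 through 7.92 to 8.21 in Sham_VSG_PF rats, a difference of -0.34 from Sham_VSG (95% confidence interval -0.65 to -0.02, adjusted p = 0.908, limma), and all 6 pair-fed rats lay below the Sham_VSG mean. Sham_RYGB rats likewise all lay below the Sham_VSG mean, with a difference of -0.27 (-0.59 to 0.04, adjusted p = 0.9994). VSG rats differed from pair-fed shams by 0.30 (-0.02 to 0.61, adjusted p = 0.833), with 5 of 6 above the pair-fed mean. The first of these comparisons shares the Sham_VSG arrays with the second and the Sham_VSG_PF arrays with the third, and none of them passed the test. The share of all genes with all 6 rats on the same side of another group's mean was not counted.

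In order of the means, Tfrc was highest in RYGB rats (8.79), then in Sham_VSG (8.24 ± 0.25), VSG (8.20 ± 0.22), Sham_RYGB (7.97 ± 0.19) and Sham_VSG_PF rats (7.91 ± 0.28; SD, n = 6 each). Only the steps from RYGB to Sham_VSG (0.54) and from VSG to Sham_RYGB (0.23) were larger than both SDs, and neighbouring groups overlapped at every step. The lowest RYGB values, 8.37 and 8.38, lay within the range of the 24 other rats, which reached 8.54. The group means of Tfrc spanned 0.88 log2 units, and 2.33% of the genes tested spanned more.

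**Figure D3:**
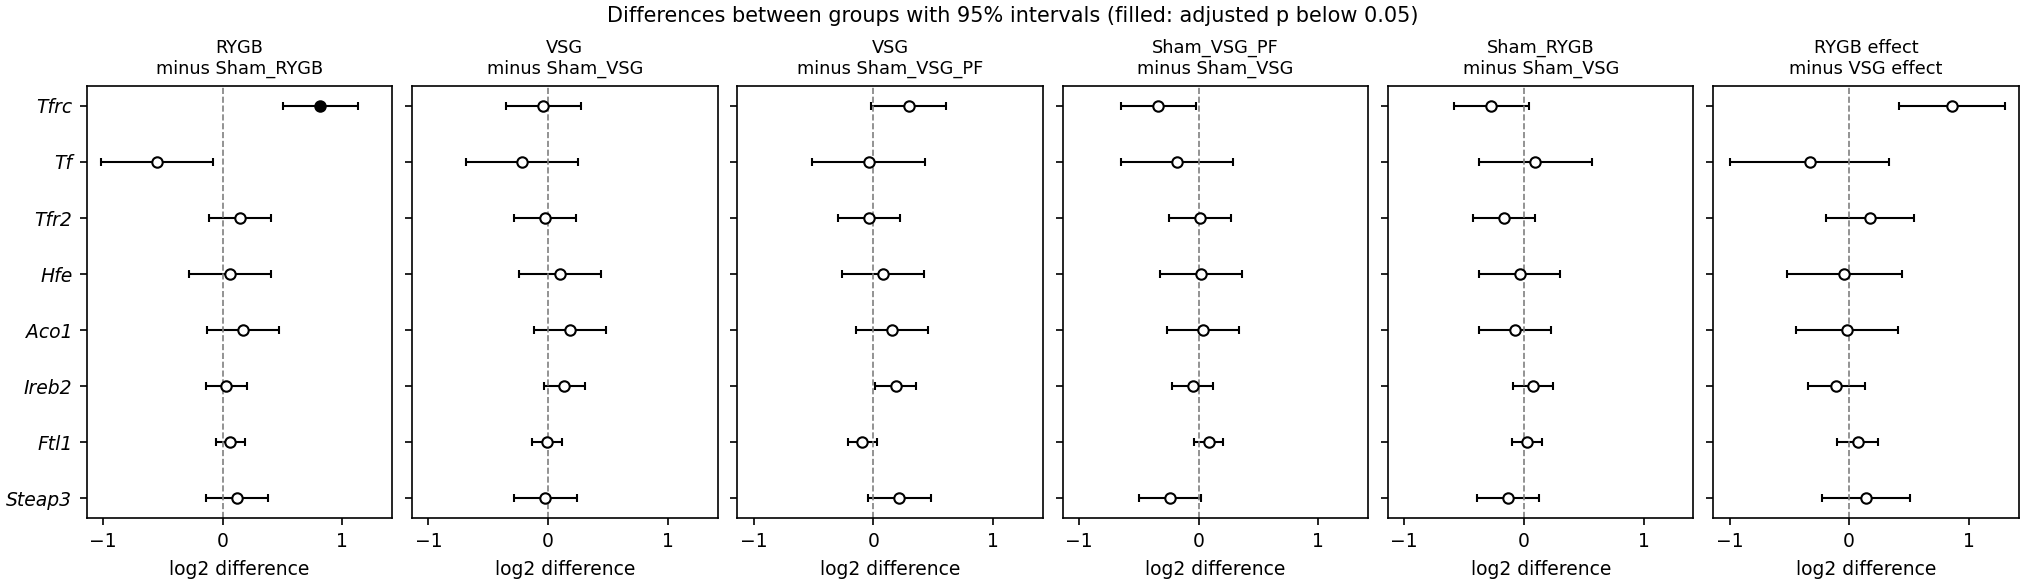
Log2 difference between groups for the 8 genes in 6 comparisons, with 95% confidence intervals; filled circles have an adjusted p below 0.05. Tfrc in RYGB minus Sham_RYGB, at 0.82, is the single filled circle.

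Of the 8 members, Tfrc alone passed the test in RYGB against Sham_RYGB, where 0.183% of all genes passed. In that comparison 7 members were higher and 1 lower, with a median difference of 0.09 against -0.01 over all genes. At an unadjusted p below 0.05, the limma fit held 2 members, Tfrc and Tf, against 13% of all genes. No member passed in any of the other 5 comparisons, in which no gene at all passed (0%). There, an unadjusted p below 0.05 was reached by no member in VSG against Sham_VSG (6.05% of genes) and in Sham_RYGB against Sham_VSG (4.71%). It was reached by 1 member each in VSG against Sham_VSG_PF (Ireb2; 5.94%), in Sham_VSG_PF against Sham_VSG (Tfrc; 5.33%) and in the RYGB effect minus the VSG effect (Tfrc; 5.72%).

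Tf, the plasma iron carrier made mainly by the liver, was the only member lower in RYGB rats, and it did not pass the test. Its log2 signal ran from 4.08 through 4.44 to 5.01 in RYGB rats, against 4.37, 4.93 and 6.09 in Sham_RYGB rats. The groups overlapped, and all 6 RYGB rats lay below the Sham_RYGB mean. The means were 4.48 ± 0.33 in RYGB and 5.03 ± 0.62 in Sham_RYGB rats (SD, n = 6 each), a difference of -0.55 (95% confidence interval -1.02 to -0.08, adjusted p = 0.317, limma).

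Tf values were set beside the B and plasma cell content of the samples. Tf lay between 4.62 and 6.09 (median 5.01) in the 11 arrays high in B and plasma cell genes and between 4.05 and 5.01 (median 4.57) in the other 19. Within Sham_RYGB, the 3 arrays high in these genes had Tf from 4.90 to 6.09 and the other 3 from 4.37 to 4.97. All 10 B and plasma cell genes tested were lower in RYGB than in Sham_RYGB rats, with a median of -1.35 and none past the test. The Tf difference was -0.37 with the mean of these genes as a covariate and -0.17 over the arrays low in them (95% confidence interval -0.67 to 0.33). Without Sham_RYGB replicate 1, the array with the highest Tf, it was -0.34. In VSG rats Tf averaged 4.71 ± 0.37, against 4.93 ± 0.35 in Sham_VSG rats and 4.75 ± 0.33 in Sham_VSG_PF rats, and neither difference passed.

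Tfr2, which binds transferrin less tightly than TfR1 and is mainly a hepatic and erythroid gene, gave a dim signal with a mean of 2.51 over the 30 arrays, close to the filter on dim genes at 2.325. It ran from 2.32 through 2.48 to 3.03 in RYGB rats, against 2.22, 2.38 and 2.59 in Sham_RYGB rats. The difference was 0.15 (95% confidence interval -0.11 to 0.41, adjusted p = 0.616, limma), and 0.048 without RYGB replicate 3, the array with the highest RYGB value. Hfe, whose protein binds TfR1 in competition with transferrin, was also dim, with a mean of 2.81. It ran from 2.41 through 2.77 to 3.26 in RYGB rats, against 2.45, 2.77 and 3.02 in Sham_RYGB rats, a difference of 0.06 (-0.28 to 0.40, adjusted p = 0.892) that ran from -0.028 to 0.14 with 1 array left out. Both genes overlapped in all groups, and without detection calls it is not known on which arrays they stood above background.

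Steap3, the ferrireductase of the endosome, ran from 6.56 through 6.70 to 6.81 in RYGB rats, against 6.09, 6.59 and 6.89 in Sham_RYGB rats, a difference of 0.12 (95% confidence interval -0.14 to 0.38, adjusted p = 0.685, limma). The RYGB values lay inside the Sham_RYGB range, and without Sham_RYGB replicate 3, its lowest array, the difference was 0.027. Among the shams Steap3 ran from 6.30 through 6.45 to 6.59 in Sham_VSG_PF rats, against 6.28, 6.595 and 7.15 in Sham_VSG rats. That difference of -0.24 (-0.50 to 0.02, adjusted p = 0.927, limma) did not pass. All 6 pair-fed rats lay below the Sham_VSG mean, within overlapping ranges. Against pair-fed shams, all 6 VSG rats lay above the mean, with a difference of 0.22 (-0.04 to 0.48, adjusted p = 0.865).

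Neither mRNA of the iron regulatory proteins passed the test. Aco1 ran from 8.65 through 8.88 to 9.12 in RYGB rats, against 8.06, 8.85 and 8.95 in Sham_RYGB rats, a difference of 0.17 (95% confidence interval -0.13 to 0.47, adjusted p = 0.6254, limma). It was 0.037 without Sham_RYGB replicate 3, the array with the lowest Aco1 of that group. It turned to -0.05 with the enterocyte mean as a covariate, to -0.10 with the proliferation mean and to -0.01 over the arrays low in B and plasma cell genes. Aco1 was at a median of 8.62 in the 11 arrays high in B and plasma cell genes and 8.95 in the other 19, and the 3 Sham_RYGB arrays with the lowest Aco1 were the 3 high in these genes. In VSG rats Aco1 averaged 8.98 ± 0.22, against 8.79 ± 0.24 in Sham_VSG and 8.82 ± 0.28 in Sham_VSG_PF rats (SD, n = 6 each), and neither difference passed.

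Ireb2 ran from 6.97 through 7.07 to 7.24 in RYGB rats, against 6.93, 7.04 and 7.27 in Sham_RYGB rats, a difference of 0.03 (95% confidence interval -0.14 to 0.20, adjusted p = 0.896, limma), or 0.0012 to 0.069 with 1 array left out. It was highest in VSG rats, which ran from 6.84 through 7.12 to 7.35, against 6.88, 7.0025 and 7.12 in Sham_VSG rats and 6.85, 6.94 and 7.09 in Sham_VSG_PF rats. The VSG difference was 0.14 against Sham_VSG (-0.03 to 0.31, adjusted p = 0.835) and 0.19 against Sham_VSG_PF (0.02 to 0.36, adjusted p = 0.780). In both comparisons 5 of 6 VSG rats lay above the mean of the shams, and neither passed.

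Ftl1, the ferritin light chain that helps to store iron as a mineral core, was the steadiest member. It ran from 11.46 through 11.52 to 11.67 in RYGB rats, against 11.46, 11.48 and 11.58 in Sham_RYGB rats, a difference of 0.06 (95% confidence interval -0.06 to 0.19, adjusted p = 0.649, limma). On the linear scale the interval ran from 0.960-fold to 1.14-fold. All 30 arrays lay within 0.32 log2 units, and the group means spanned 0.10, less than 95.7% of the genes tested. Ferritin genes have near-identical copies, so that the Ftl1 signal may hold that of others: the table also had clusters shared with another locus, and the cluster of its relative Ftl1l1 averaged 9.18 ± 0.10 in RYGB rats and 9.06 ± 0.20 in Sham_RYGB rats (SD, n = 6 each).

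For none of the other 7 members was a step between neighbouring groups, ordered by their means, larger than both SDs. Tf was highest in Sham_RYGB and lowest in RYGB rats, and Ftl1 highest in RYGB and lowest in VSG rats. Aco1, Ireb2 and Hfe were highest in VSG rats, Tfr2 in Sham_VSG_PF rats and Steap3 in Sham_VSG rats. The group means of Tf spanned 0.55 log2 units, with 9.12% of genes spanning more, whereas those of Tfr2 and Hfe spanned less than in most genes (78.2% and 88.6% spanned more).

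**Figure D4:**
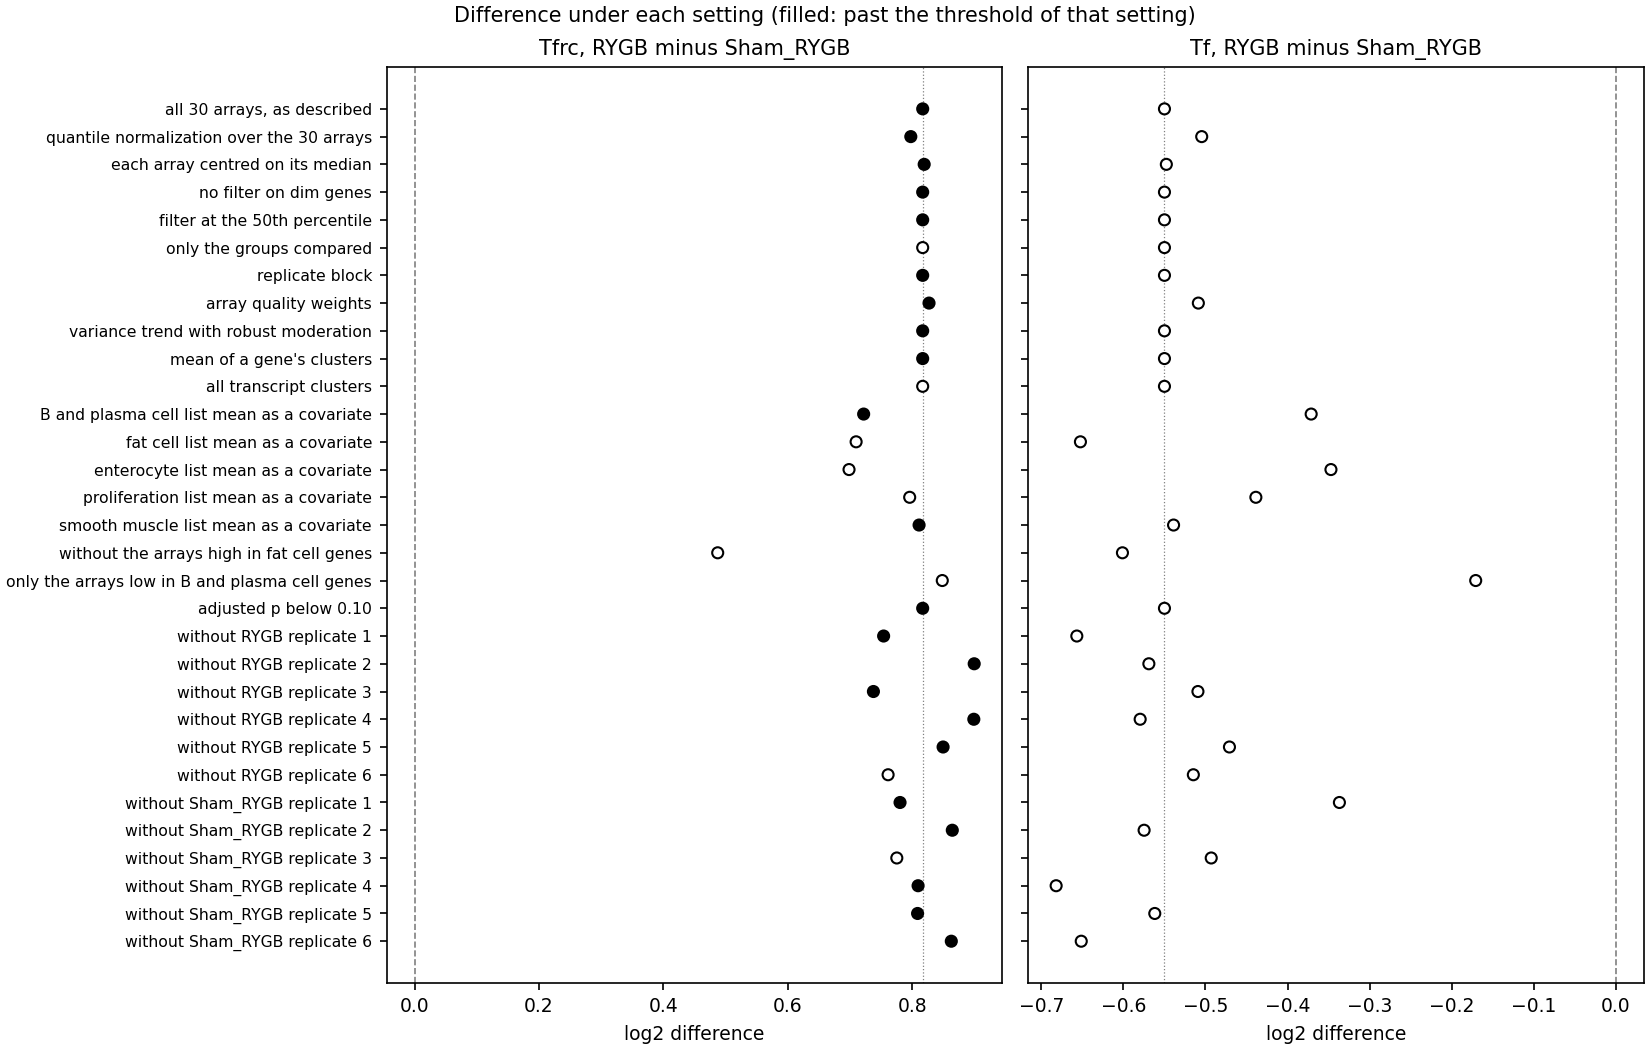
Log2 difference of Tfrc (left) and Tf (right) between RYGB and Sham_RYGB rats as described (top) and under each other setting or with 1 array left out; filled circles pass the threshold of that setting, the dotted line is the value at the top and the dashed line is 0. Tfrc stays between 0.49 and 0.90 and Tf between -0.68 and -0.17.

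The genes whose pattern over the 30 rats was most like that of Tfrc were sought among the 1658 tested genes that varied at least as much. By the root mean square difference of the mean-centred log2 values they were Grin2b (0.320), a glutamate receptor subunit, Efna1 (0.326), an ephrin ligand, and then Gimd1 (0.331), C1h11orf86 (0.345) and Prr15 (0.351). Tfrc itself had an SD of 0.403 over the arrays, so even the closest patterns left most of that spread unmatched. Since the RYGB and Sham_RYGB arrays took part in this choice, a RYGB difference like that of Tfrc is favoured by it, and the differences are given as a description: 0.30 for Grin2b, 0.61 for Efna1, 0.84 for Gimd1, 0.70 for C1h11orf86 and 0.93 for Prr15. For Tf the closest genes were Rabep2 (0.308) and Taf1b (0.316), and for Aco1 they were Gna11 (0.137) and Tmem30b (0.137), against SDs of 0.431 and 0.256.
The pair closest to Ireb2 was Rere (0.1003) and Kdm5b (0.130), and the pair closest to Steap3 was Atp8a2 (0.179) and Hadh (0.186). For Tfr2 it was Otud1 (0.196) and Strc (0.197), for Hfe Kcnk12 (0.225) and Padi4 (0.261), and for Ftl1 Dcaf11 (0.0857) and Atp5f1a (0.0866). The likeness of the Ftl1 pair was no closer than the SD of Ftl1 itself, 0.0792.

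Other genes of iron handling did not pass the test after RYGB. Of 75 listed symbols (Hfe2 and Hjv name the same gene) 42 could be tested; 29 had no cluster named for them alone, among them the luminal iron carrier Slc11a2, the ferritin heavy chain Fth1 and the iron sensor Fbxl5, and 4 were too dim. In RYGB against Sham_RYGB rats 27 were higher, 15 lower and none past the test (lowest adjusted p = 0.192, limma). The 95% confidence interval left out 0 for 3 that were higher (Bmp2, Slc40a1 and Heph) and 1 that was lower (Exoc6), 9.52% of them against 13% of all genes. With 1 array left out, which was added after the data were seen, the difference came nearer to 0 by over 1.5 times, or crossed it, for 9 of the 15 genes whose values follow.

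**Figure D5:**
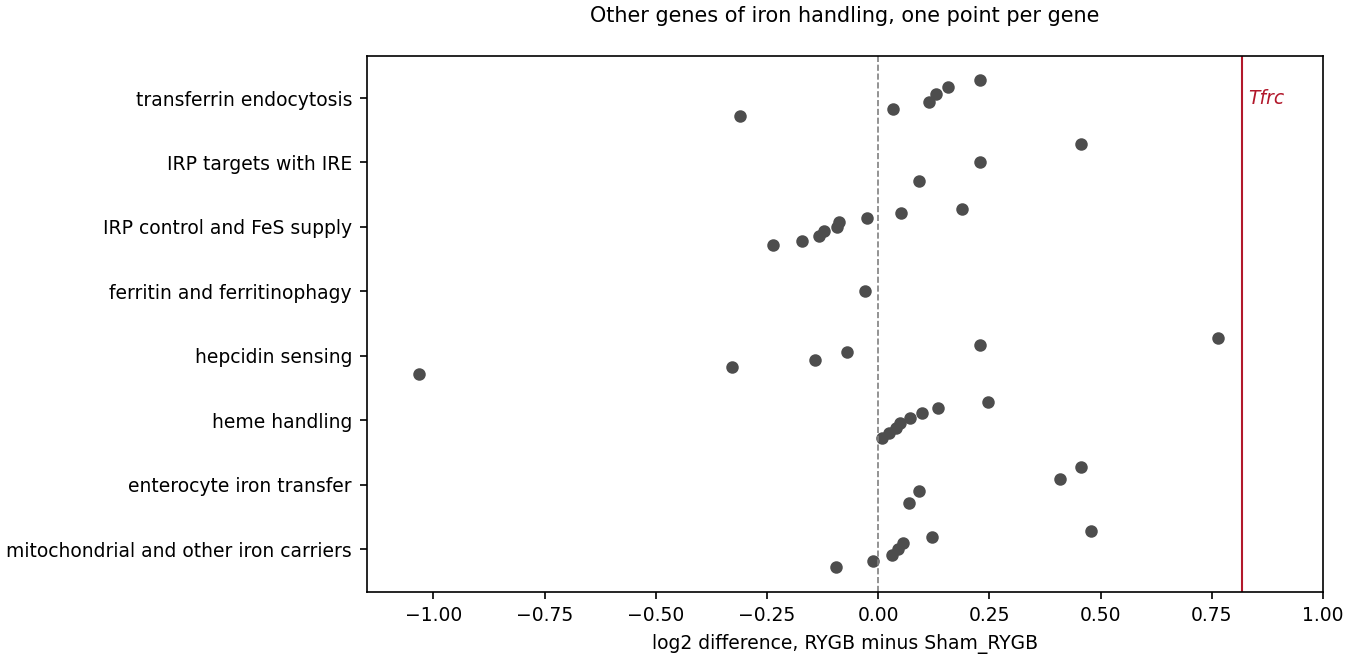
Log2 difference between RYGB and Sham_RYGB rats for the 42 other iron genes tested, 1 point per gene, grouped by role; a gene in 2 groups is drawn in both. No point passes the test, and the red line at 0.82 is Tfrc.

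In the recycling route of the receptor, 5 of 6 tested genes were higher and 1 lower, with a median of 0.12. Exoc6, an exocyst subunit whose loss in mice impairs transferrin recycling in red cell precursors, averaged 6.00 ± 0.32 in RYGB rats and 6.31 ± 0.13 in Sham_RYGB rats (SD, n = 6 each), a difference of -0.31 (adjusted p = 0.274, limma), or -0.43 to -0.25 with 1 array left out. Exoc6 differed by -0.25 between VSG and Sham_VSG rats (adjusted p = 0.815) and by -0.26 between Sham_VSG_PF and Sham_VSG rats (adjusted p = 0.908); the VSG and the pair-fed comparison share the Sham_VSG arrays. Rab11a, the small GTPase of recycling endosomes, differed by 0.23 (adjusted p = 0.399). The recycling genes thus had values on both sides of 0.

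Among other mRNAs with iron-responsive elements, 3 of 3 tested were higher with a median of 0.23 and none past the test. Slc40a1, the iron exporter ferroportin, averaged 5.06 ± 0.66 in RYGB rats and 4.61 ± 0.19 in Sham_RYGB rats (SD, n = 6 each), a difference of 0.46 (adjusted p = 0.345, limma). The highest RYGB value was 6.33 in replicate 5, and without that array the difference was 0.20 (95% confidence interval -0.10 to 0.50, adjusted p = 0.611). Cdc42bpa, a kinase whose mRNA carries such an element behind its coding part as Tfrc does, differed by 0.23 (adjusted p = 0.503). In the transfer of iron across the enterocyte 4 of 4 were higher with a median of 0.25, beside a median of 0.23 for the enterocyte genes, of which 11 of 11 were higher; the part of enterocyte content in these values was not tested. Slc40a1 and Epas1 stand in both of these iron lists, so the counts of 3 and 4 are not separate. Heph, the ferroxidase that works with ferroportin, averaged 8.08 ± 0.20 in RYGB rats and 7.67 ± 0.23 in Sham_RYGB rats, a difference of 0.41 (adjusted p = 0.294), or 0.34 to 0.48 with 1 array left out.

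The genes that control the regulatory proteins or supply their iron-sulphur clusters had 2 of 9 higher, 7 lower and a median of -0.09. Nubp1, a scaffold of cytosolic cluster assembly, differed by -0.24 (adjusted p = 0.434, limma). Glrx5, a glutaredoxin of mitochondrial cluster assembly, differed by 0.19 (adjusted p = 0.490, limma) with all 6 RYGB rats above the Sham_RYGB mean. All 8 tested heme genes were higher, though by a median of only 0.06; Slc46a1, a folate and heme transporter, differed by 0.25 (adjusted p = 0.627) and Hmox2, a constitutive heme oxygenase, by 0.13 (adjusted p = 0.678). The only other ferritin gene tested, the mitochondrial Ftmt, differed by -0.03 (adjusted p = 0.958). These groups passed the test for no member.

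In hepcidin sensing 2 of 6 tested genes were higher and 4 lower, with a median of -0.11. Bmp2, a ligand that induces hepcidin in the liver, averaged 6.05 ± 0.64 in RYGB rats and 5.28 ± 0.42 in Sham_RYGB rats (SD, n = 6 each), a difference of 0.76 (95% confidence interval 0.28 to 1.25, adjusted p = 0.192, limma). With 1 array left out the Bmp2 difference was 0.61 to 0.97, and it passed in 1 of those fits, without RYGB replicate 4 (0.97, adjusted p = 0.0364). Id1, a target of BMP signalling, differed by -0.33 (adjusted p = 0.461). The widest spread belonged to Hamp, the hepcidin gene, which was picked out after its values were seen: it ran from 1.90 through 2.46 to 4.91 in RYGB rats, against 2.35, 3.78 and 5.32 in Sham_RYGB rats, a difference of -1.03 (-2.60 to 0.54, adjusted p = 0.564). Outside Sham_RYGB the group medians of Hamp were 2.24 to 2.46, close to the filter on dim genes at 2.325. Without detection calls it is not known on which arrays Hamp stood above background. Among further iron carriers 5 of 7 were higher with a median of 0.05, including Slc39a8, a zinc, manganese and iron importer, by 0.48 (adjusted p = 0.389), and Lcn2, which binds bacterial siderophores, by 0.12 (adjusted p = 0.776).

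After VSG 19 of the 42 genes were higher and 23 lower than in Sham_VSG rats, with a median of -0.02 and none past the test (lowest adjusted p = 0.788, limma). Slc40a1 differed by -0.01 and Heph by 0.03 in that comparison, and Bmp2 by -0.07. For Bmp2 the RYGB effect exceeded the VSG effect by 0.83 (95% confidence interval 0.15 to 1.52), which did not pass (adjusted p = 0.844).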

How the data were processed

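The deposited table holds log2 signals, 1 per transcript cluster and array, which the authors made with RMA (Affymetrix Expression Console 1.3.0.187) per the submitters' processing notes. The set of arrays normalized jointly is not given in the sources used here, and neither detection calls nor scan dates were used. Of 36685 transcript clusters, 14824 carried 1 gene symbol, 829 several and 21032 none in the platform annotation. The brightest cluster per symbol was kept and genes below the 25th percentile were left out. Group means were estimated from the 30 arrays together in limma 3.58.1 (R 4.3.3), with empirical Bayes (25 residual degrees of freedom, two-sided), with Benjamini-Hochberg adjustment over 10918 genes in each of 6 comparisons and a threshold of 0.05. Folds are powers of the log2 difference. The fit was also run on simulated data with independent noise for each gene. Those data hold no shared variation between arrays, such as that in fat or B and plasma cell genes. The members and all gene lists were chosen with earlier results of these data known. Named were the 8 members, the 2 genes of each iron list with the smallest p in RYGB minus Sham_RYGB where none passed, and the genes most like a member in pattern (5 for Tfrc, 2 for others). Alternatives were other scalings and filters, other fits, marker list means as covariates, subsets of arrays and leaving out each array. Figures were drawn with matplotlib 3.10.9.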

Additional observations from a re-analysis of the deposited data

Results flagged for a closer look

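In 2 of the 40 sets of 6 values (8 genes in 5 groups) 1 rat lay far from the others of its group, by Dixon's criterion, and chance alone sets apart about 1 in 20. Tfr2 in RYGB replicate 3 was 3.033, while the other RYGB rats lay between 2.322 and 2.515; this array is 1 of the 3 RYGB arrays high in fat cell genes and has the highest Tfrc of all 30. Ftl1 in Sham_VSG_PF replicate 5 was 11.352, while the other pair-fed rats lay between 11.55 and 11.613; this array is high in B and plasma cell genes and has the lowest Tfrc of all 30, at 7.42. Whether these contents bear on the values was not tested.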

How the results depend on the processing

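The Tfrc difference between RYGB and Sham_RYGB rats kept its direction under all 18 alternatives and passed under 11. It was lost, and with it the count of members past the threshold went to 0, in a fit of only the groups compared (0.82, adjusted p = 0.215), over all transcript clusters (0.82, 0.0689), with the mean of fat cell (0.71, 0.173), enterocyte (0.70, 0.096) or proliferation genes (0.80, 0.0734) as a covariate, without the 4 fat-rich arrays (0.49, 0.443) and over the arrays low in B and plasma cell genes (0.85, 0.0595). With 1 array left out it was 0.74 to 0.90, and the count 0 to 1. Several of the 18 alternatives left the Tfrc group means as they were, so the direction could not change there. These were the filters, the cluster choices, the fit of only the groups compared, the replicate block, the variance trend and the 0.10 threshold. For Tfrc, which has a single cluster, the mean of clusters and the 0.10 threshold largely repeat the main result. The number of all genes past the threshold ranged from 0 to 48. With the replicate number as a block, Tfrc was 0.82 (adjusted p = 0.0385) and no call of a member changed; same-numbered rats deviated together with r from -0.572 to 0.677, over 0.1 in 18 of 30 pairs, and the numbers were not taken to pair the rats. Tfr2 and Hfe gave no value with a filter at the 50th percentile.

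None of the sign changes below concerned a difference past the threshold, and the cause was not tested. In RYGB minus Sham_RYGB they were Hfe (-0.082) and Aco1 (-0.015) over arrays low in B and plasma cell genes, and Aco1 with enterocyte (-0.046) or proliferation genes (-0.099) as a covariate. In VSG minus Sham_VSG they were Tfrc without the fat-rich arrays (0.018), and Ftl1 (0.012) and Steap3 (0.0014) with quantile normalization. In VSG minus Sham_VSG_PF it was Tf with the enterocyte covariate (0.083). In Sham_VSG_PF minus Sham_VSG they were Tfr2, Hfe and Aco1: with quantile normalization (Tfr2 -0.0205, Hfe -0.011), median centring (Tfr2 -0.0235, Hfe -0.013, Aco1 -0.001) and covariates (Tfr2 -0.0042 and Aco1 -0.039 with B and plasma cell genes, Hfe -0.0126 with enterocyte, Aco1 -0.053 with proliferation and -0.093 with smooth muscle genes). In Sham_RYGB minus Sham_VSG they were Tf (-0.058) and Aco1 (0.084) with the enterocyte covariate, Tf (-0.085), Hfe (0.37) and Ireb2 (-0.0017) over arrays low in B and plasma cell genes, and Ftl1 (-0.022) with median centring. In the RYGB effect minus the VSG effect they were Hfe with the enterocyte covariate (0.017) and Aco1 with median centring (5e-04). With 1 array left out, differences ranged across 0 for Hfe in RYGB minus Sham_RYGB (-0.028 to 0.14); for Tfrc (-0.0995 to 0.0189), Tfr2 (-0.0823 to 0.0655), Ftl1 (-0.0249 to 0.00847) and Steap3 (-0.104 to 0.070) in VSG minus Sham_VSG; and for Tf (-0.159 to 0.0932) and Tfr2 (-0.0942 to 0.0423) in VSG minus Sham_VSG_PF. They did so for Tfr2 (-0.0661 to 0.101), Hfe (-0.0705 to 0.133) and Aco1 (-0.0434 to 0.112) in Sham_VSG_PF minus Sham_VSG, for Tf (-0.117 to 0.228), Hfe (-0.121 to 0.0746) and Aco1 (-0.156 to 0.0525) in Sham_RYGB minus Sham_VSG, and for Hfe (-0.150 to 0.0456) and Aco1 (-0.151 to 0.0575) in the difference of the effects.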
